A study of Chlamydomonas reinhardtii with 12 samples.

Results

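The green alga Chlamydomonas reinhardtii was examined late in a light stress, 6 h after cultures had been moved from low light to high light, on the 4 slides whose titles name that time, out of 12 slides in the series. Each slide was a 2-colour cDNA microarray on which total RNA of the wild-type strain CC-125 and of the double mutant npq1 lor1, from cultures given the same treatment, competed for the same spots. The 4 slides came from 2 biological samples, each hybridised on 2 slides with exchanged dyes. The other 8 slides compared the same strains before the shift and 1 h into it, 4 slides each, and serve for comparison and for the estimate of the spread. Light intensities and culture conditions are not stated in the labels.

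In excess light, algae protect their photosystems with xanthophylls, the oxygen-bearing carotenoids of the thylakoid membrane. The npq1 mutant cannot turn violaxanthin into zeaxanthin and the lor1 mutant makes no lutein, so a strain with both mutations is poor in the pigments that quench excited chlorophyll and reactive oxygen. Light-harvesting antenna proteins hold these pigments: the minor antennae CP26 and CP29 link the trimeric antenna to the core of photosystem II, and the stress-related protein LHCSR takes part in the harmless release of absorbed energy as heat. Plastocyanin and ferredoxin carry electrons to and from photosystem I, and the enzymes of tetrapyrrole synthesis supply chlorophyll.

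The array held 11520 spots, 4 copies of each of 2880 elements, and values are log2 ratios normalized by the authors. A deposited value of exactly 0 was read as a missing spot, which took out 12.7% and 7.36% of the spots on the slides of biological sample 1 and 43.2% and 17.5% on those of biological sample 2. The first value of each pair is for the slide that carried wild type in channel 1, called wild-type-first here, and the second for the slide that carried npq1 lor1 in channel 1, called mutant-first. Having 2 biological samples limits the precision, and the median standard error of a mean was 0.0748 over the 2139 elements that had a value on all 4 slides.

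On every slide the values probably express wild type relative to npq1 lor1. The titles name the strains in that order, and the labels turn the ratio over on mutant-first slides, but they do not say which dye each channel had. Under this reading a ratio below 0 means more transcript in npq1 lor1. The slides did not agree closely. Across elements, Pearson's r was 0.47 between the wild-type-first slides and 0.51 between the mutant-first slides, and it lay between -0.17 and 0.13 for the 4 pairs of opposite orientation. Of the 2139 elements, 24.2% were above 0 on both wild-type-first slides and below 0 on both mutant-first slides, and 7.01% were the reverse. The same sign on all 4 slides was found for 17.7%, with 10% below 0 throughout and 7.67% above. What these opposite signs come from was not tested. If the sign of the mutant-first slides were the other way, the means of LHCSR1, PSBQ and PSAD, described next, would be 0.10, 0.018 and 0.0096, and 1 of the 8 loci past the test, plastocyanin at -0.42, would remain past it.

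After 6 h of high light, 8 elements with a locus tag differed between the strains, and each of them had a ratio below 0, meaning more transcript in npq1 lor1 under the likely reading. They encode LHCSR1, CP26, CP29, the photosystem I subunits PSAD and PSAE, the photosystem II protein PSBQ, plastocyanin, and the chlorophyll-pathway enzyme GSA1, so all 8 belong to photosynthetic light capture, electron transport or pigment synthesis. Their mean log2 ratios ran from -1.03 to -0.41, that is from a 2.04-fold to a 1.33-fold difference. Of all elements tested, 2.01% passed limma's moderated test at an adjusted p of 0.05, and 1.68% did so with a ratio below 0. Among the locus-tagged elements 8 of 79 passed, all below 0, against 35 of the 2060 elements without a tag, 28 of them below 0. The median ratio was 0.03 over all tested elements and -0.01 over the tagged ones.

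The tagged elements numbered 105, for 100 loci, and 79 of them, for 75 loci, had values on all 4 slides. Of the 26 others, 24 lacked a value on the wild-type-first slide of biological sample 2, the slide with most missing spots. Protein names and functions are given for 37 loci whose function is well established, and the other loci are left by their tags.

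**Figure D1:**
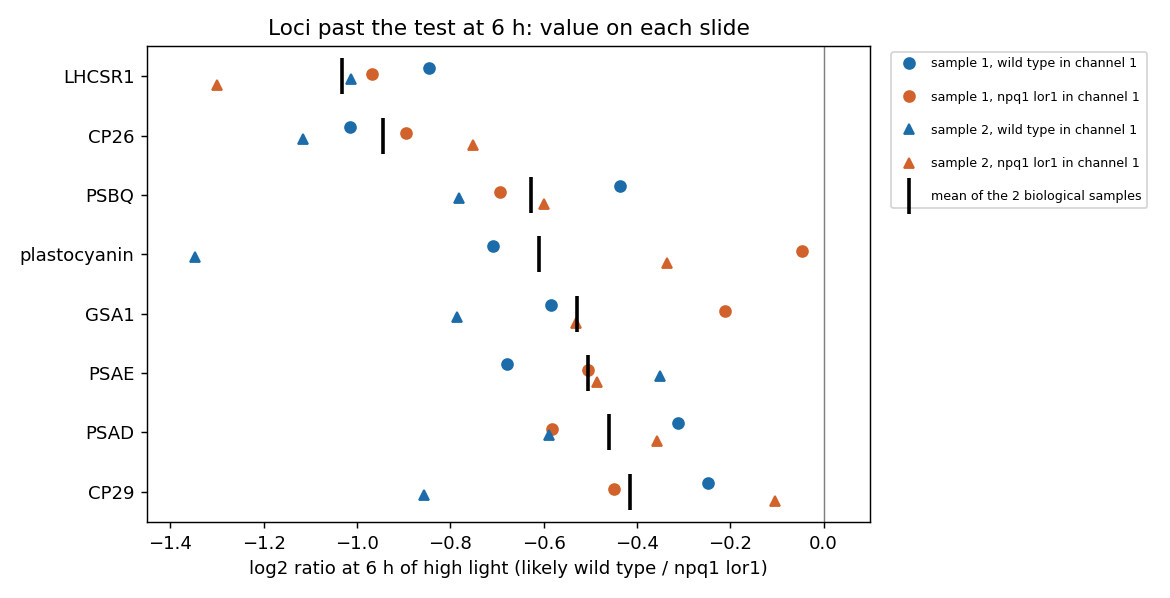
Log2 ratio at 6 h of high light (horizontal axis) of the 8 locus-tagged elements past the test, with 1 point for each slide (circles for biological sample 1, triangles for biological sample 2, blue for wild type in channel 1, orange for npq1 lor1 there) and a black bar at the mean of the 2 biological samples. All 4 slides lie below 0 for each locus, with the mutant-first slide of biological sample 1 nearest to 0 for plastocyanin, at -0.05.

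Of the 8 loci, LHCSR1 and CP26 had the ratios farthest from 0 and CP29 the nearest. LHCSR1 (CHLRE_08g365900v5), a light-harvesting-like protein that accumulates under stress, had log2 ratios of -0.85 and -0.97 on the wild-type-first and mutant-first slides of biological sample 1 and of -1.01 and -1.30 on those of biological sample 2. No slide approached 0, and the sample means of -0.91 and -1.16 gave an overall ratio of -1.03 ± 0.18 (SD, n = 2), the second lowest of 2139 (limma adjusted p = 0.00358). All 15 spots with a value lay below 0, between -1.83 and -0.51.

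CP26 (CHLRE_16g673650v5) varied least of the 8 in relation to its size. Its slides had -1.01 and -0.90 in biological sample 1 and -1.12 and -0.75 in biological sample 2, again wild-type-first before mutant-first. The sample means, -0.95 and -0.93, nearly coincided. Its difference was 1.92-fold (limma adjusted p = 0.00101, SD 0.01, n = 2). Its 15 measured spots all lay below 0.

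CP29 (CHLRE_17g720250v5), the other minor antenna protein, had a smaller ratio and a wider scatter. Its slides had -0.25 and -0.45 in biological sample 1 and -0.86 and -0.10 in biological sample 2, with a mean of -0.41 ± 0.09 (SD, n = 2, limma adjusted p = 0.0219). The sample means of -0.35 and -0.48 were close to each other although the exchanged slides of biological sample 2 were far apart. LHCBM3 (CHLRE_04g232104v5), a protein of the major trimeric antenna, was the 4th antenna locus on the array and could not be tested, because its wild-type-first slide of biological sample 2 had no value. The other slides gave -0.76, -0.89 and 0.21, so biological sample 1 was clearly below 0 and the measured slide of biological sample 2 was above it.

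Photosystem I was represented by 3 loci. PSAE (CHLRE_10g420350v5), a stromal subunit that helps ferredoxin to dock, had -0.68 and -0.51 in biological sample 1 and -0.35 and -0.49 in biological sample 2, with a mean of -0.50 ± 0.12 (SD, n = 2, limma adjusted p = 0.00899). PSAD (CHLRE_05g238332v5), its neighbour in the ferredoxin docking site, had -0.31 and -0.58, then -0.59 and -0.36, and a mean of -0.46 ± 0.02 (SD, n = 2, limma adjusted p = 0.0148). The 2 stromal subunits thus lay within each other's slide range. PSAF (CHLRE_09g412100v5), which binds plastocyanin on the lumenal side, had a mean of -0.11 ± 0.12 (SD, n = 2, limma adjusted p = 0.469) and slides between -0.33 and 0.27. It did not pass the test, and whether it differed from PSAD and PSAE was not tested.

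In the thylakoid lumen, PSBQ (CHLRE_08g372450v5), a protein of the oxygen-evolving complex, had -0.44 and -0.69 in biological sample 1 and -0.78 and -0.60 in biological sample 2. Its mean of -0.63 ± 0.09 (SD, n = 2) was a 1.54-fold difference (limma adjusted p = 0.00776). Plastocyanin (CHLRE_03g182551v5), the copper protein that feeds electrons to photosystem I, had -0.71 and -0.05, then -1.35 and -0.34. Both of its mutant-first values lay above both of its wild-type-first values, as they did for CP26 and GSA1. Its biological samples, at -0.38 and -0.84, differed more than those of any other locus among the 8. Its mean was -0.61 ± 0.33 (SD, n = 2, limma adjusted p = 0.0200), and on the mutant-first slides alone it was -0.19 (adjusted p = 0.338).

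The other 4 electron carriers and cytochrome b6f elements did not pass the test. PETM (CHLRE_12g546150v5), a small subunit of cytochrome b6f, had a mean of -0.43 ± 0.39 (SD, n = 2, limma adjusted p = 0.124): biological sample 2 was low on both slides (-0.71 and -0.70) and biological sample 1 less so (-0.11 and -0.20). The main photosynthetic ferredoxin PETF (CHLRE_14g626700v5) showed the same division, with -0.13 and -0.09 against -0.45 and -0.47 (limma adjusted p = 0.139). The ferredoxin FDX5 (CHLRE_17g700950v5), known for its induction without oxygen, had a mean of -0.38 ± 0.05 (SD, n = 2, limma adjusted p = 0.135), while FDX2 (CHLRE_16g658400v5), which serves nitrite reduction, had 0.08 ± 0.05 (SD, n = 2). PETM, PETF and FDX5 were below 0 on all 4 slides, and FDX2 was above 0 on 3 of them.

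Over the antenna, photosystem and electron-carrier elements together, 7 of 12 tested passed, 11 had a mean below 0 and 10 were below 0 on all 4 slides, with a median log2 ratio of -0.44. This grouping was formed with the values known, and the comparison with other genes is a description. The 20 tested elements with other named functions in these lists, the 4 of the chloroplast ATP synthase among them, had a median of -0.03. Of these 20, 14 means were below 0, 1 element passed and 1 was below 0 on all 4 slides. The 47 that remain had a median of 0.03, with 18 means below 0, 6 elements below 0 on all 4 slides and 0 past limma's test. Of all elements tested, 2.01% passed and 10% were below 0 on all 4 slides.

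**Figure D2:**
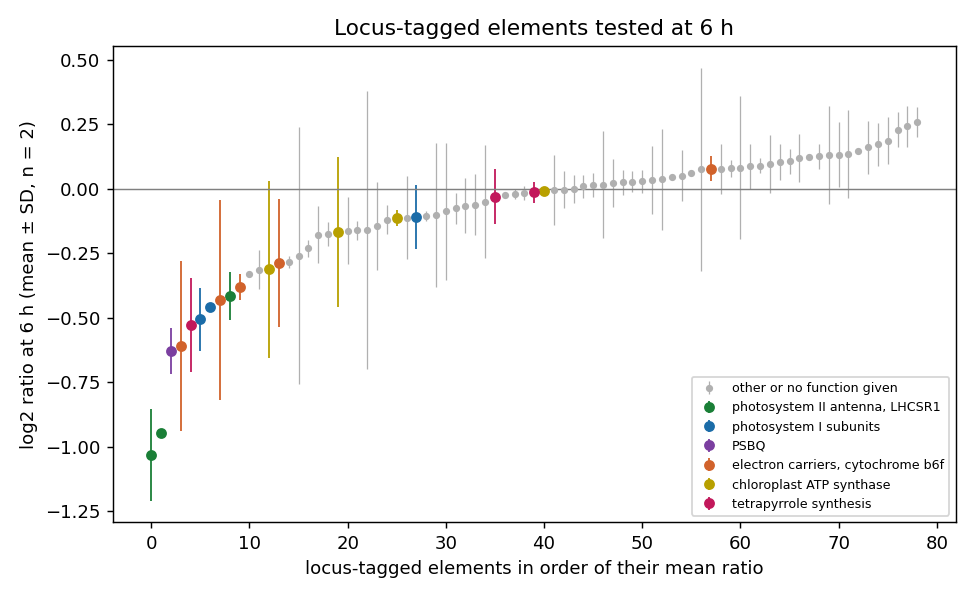
The 79 locus-tagged elements tested at 6 h in order of their mean log2 ratio (vertical axis), with bars for the SD of the 2 biological samples and colours for the functional lists. Coloured photosynthetic elements take the low end, where LHCSR1 lies at -1.03. Other coloured elements lie near 0, such as CPX1 at -0.01 and FDX2 at 0.08. The highest tagged element lies at 0.26.

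The chloroplast ATP synthase did not follow the photosystems past the threshold. Its gamma subunit ATPC (CHLRE_06g259900v5) was printed as 3 elements, with means of -0.17 ± 0.29, -0.11 ± 0.03 and -0.01 ± 0.02 (SD, n = 2 for each; limma adjusted p between 0.332 and 0.966). The delta subunit ATPD (CHLRE_11g467569v5) had -0.31 ± 0.34 (SD, n = 2, limma adjusted p = 0.191), with -0.07 in biological sample 1 and -0.56 in biological sample 2. All 4 means, which stand for 2 loci, were below 0 and 0 of 4 passed limma's test. ATPD had the 1 unadjusted p under 0.05, at 0.0262 in limma's test. Of all elements tested, 21.6% had such an unadjusted p, so nothing is read from it.

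Tetrapyrrole synthesis was represented by 3 loci. GSA1 (CHLRE_03g158000v5), glutamate-1-semialdehyde aminotransferase, which forms the precursor of all tetrapyrroles, had -0.58 and -0.21 in biological sample 1 and -0.79 and -0.53 in biological sample 2, with a mean of -0.53 ± 0.18 (SD, n = 2, limma adjusted p = 0.0108). On the mutant-first slides alone its mean was -0.37 (limma adjusted p = 0.145). GSA1 was the 1 biosynthetic enzyme among the 8. The later steps had values near equality: CPX1 (CHLRE_02g085450v5), coproporphyrinogen III oxidase, had -0.01 ± 0.04, and CRD1 (CHLRE_07g346050v5), of the cyclase that builds the chlorophyll ring, had -0.03 ± 0.11 (SD, n = 2 for each, limma adjusted p = 0.932 and 0.847). PDS1 (CHLRE_12g509650v5), phytoene desaturase of carotenoid synthesis, the pathway in which both mutations lie, had -0.06 ± 0.11 (SD, n = 2, limma adjusted p = 0.633), with slides from -0.23 to 0.06. The mutated genes themselves were not analysed here.

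Outside the light reactions, loci for carbon fixation, redox protection, protein folding and respiration did not pass the test. Phosphoribulokinase PRK1 (CHLRE_12g554800v5), of the Calvin cycle, had -0.18 ± 0.05 (SD, n = 2, limma adjusted p = 0.217), but its slides ran from -0.53 to 0.25. In the carbon concentrating system, the carrier protein CCP2 (CHLRE_04g222750v5) had -0.26 ± 0.50 (SD, n = 2), with biological sample 1 above 0 on both slides and biological sample 2 below 0 on both. The carbonic anhydrase CAH6 (CHLRE_12g485050v5) had 0.01 ± 0.05 (SD, n = 2). The mitochondrial loci lay close to 0: the ATP synthase subunits ATP1A (CHLRE_02g116750v5) and ATP2 (CHLRE_17g698000v5) had -0.11 ± 0.16 and 0.04 ± 0.19, and the ADP/ATP carrier ANT1 (CHLRE_09g386650v5) had -0.10 ± 0.28 (SD, n = 2 for each).

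The named folding and superoxide-removing proteins had means above 0 and did not pass. Calreticulin CRT2 (CHLRE_01g038400v5), a chaperone of the endoplasmic reticulum, had slides of 0.33 and 0.04 in biological sample 1 and 0.36 and 0.24 in biological sample 2, with a mean of 0.24 ± 0.08 (SD, n = 2, limma adjusted p = 0.132). It was 1 of 2 tagged elements above 0 on all 4 slides, while 17 of the 79 tested were below 0 on all 4. Over all 2139 elements tested, 7.67% were above 0 on all 4 slides and 10% below. The protein disulfide isomerase PDI1 (CHLRE_02g088200v5) had 0.13 ± 0.19 and the manganese superoxide dismutase MSD1 (CHLRE_02g096150v5), which removes superoxide, had 0.10 ± 0.11 (SD, n = 2 for each, limma adjusted p = 0.376 and 0.444). The hydrogenase HYDA1 (CHLRE_03g199800v5) was printed as 2 elements, with 0.15 ± 0.00 and -0.00 ± 0.14 (SD, n = 2 for each, limma adjusted p = 0.222 and 0.985), which differed from each other by little more than the spread of the second. In lipid synthesis, the acyl carrier protein ACP2 (CHLRE_13g577100v5) had -0.28 ± 0.02 (SD, n = 2, limma adjusted p = 0.0899) and was below 0 on all 4 slides, and the chloroplast fatty acid desaturase FAD6 (CHLRE_13g590500v5) had -0.10 ± 0.02 (SD, n = 2, limma adjusted p = 0.674), also below 0 on all 4.

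Most elements past the test carry no locus tag, and their genes are not given in the tables used. Element 1198, numbered by its first spot, had the lowest ratio of all, with slides of -1.17 and -0.89 in biological sample 1 and -1.67 and -1.26 in biological sample 2 and a mean of -1.25 ± 0.31 (SD, n = 2, limma adjusted p = 0.00199). Element 2847 had slides between -1.30 and -0.61 and element 1699 between -1.34 and -0.68, with means of -0.97 for both. Element 1198 had nearly the same ratio at the earlier times, with means of -1.10 in low light and -1.02 at 1 h, and its change from low light was -0.15 (limma adjusted p = 0.752). Element 1699 had -0.62 and -0.71, and element 2847 had -0.30 and -0.19, with changes from low light of -0.34 and -0.67 that did not pass (limma adjusted p = 0.516 and 0.111). On the positive side 7 elements passed, which would mean more transcript in wild type. Element 654 had slides from 0.25 to 1.01 and a mean of 0.55 ± 0.11, element 819 slides from 0.30 to 0.78 and a mean of 0.53 ± 0.01, and element 1402 slides from 0.25 to 0.83 and a mean of 0.49 ± 0.06 (SD, n = 2 for each, limma adjusted p = 0.0108, 0.00606 and 0.0149). In low light the means of these 3 were 0.16, 0.23 and 0.04, and at 1 h they were 0.21, 0.46 and 0.23, and no change to 6 h passed limma's adjusted test. On each of these 3 the wild-type-first slide was the higher of the pair in both biological samples.

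**Figure D3:**
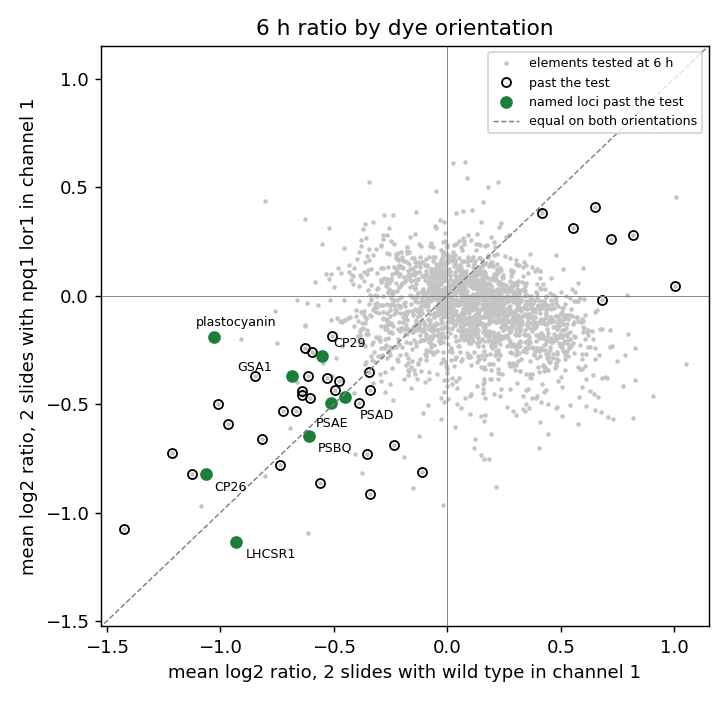
Mean log2 ratio at 6 h on the 2 wild-type-first slides (horizontal axis) against that on the 2 mutant-first slides (vertical axis) for 2139 elements, with elements past the test circled and the 8 named loci in green. The named loci lie in the lower left, from -1.07 to -0.45 on the horizontal and from -1.13 to -0.19 on the vertical axis, and 24.2% of all elements lie at the lower right by the sign of all 4 slides.

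Taken by dye orientation, the 8 loci kept their sign. On the wild-type-first slides alone all 8 passed limma's test, with means between -1.07 and -0.45. There 445 of 2197 elements passed, 111 of them below 0. On the mutant-first slides alone LHCSR1 (-1.13), CP26 (-0.82), PSBQ (-0.65) and PSAE (-0.50) passed, among 21 of 2494 elements. Plastocyanin, GSA1, PSAD and CP29 had means there between -0.47 and -0.19, with limma adjusted p from 0.0630 to 0.338. Of 117 measured spots of the 8 loci on the 4 slides, 114 lay below 0. The 8 were selected by the mean of these same spots, which favours a shared sign and a pass on either orientation. The share of all spots below 0 was not counted. Nothing is read from this count, from the kept sign or from the passes by orientation. Without the wild-type-first slide of biological sample 2, so that this sample rests on its other slide, CP26 alone of the 8 passed (-0.85, limma adjusted p = 0.0454). All 8 ratios were then still below 0, from -1.10 for LHCSR1 to -0.23 for CP29, and the count over all elements dropped from 43 to 6.

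The surroundings of the spots were not even. The up to 20 elements nearest to LHCSR1 and CP26 in spot number had median ratios of -0.24 and -0.25, while those around the other 6 loci had medians between -0.06 and 0.10. FDX5 and ACP2, which did not pass the test, also had low surroundings, with medians of -0.23 and -0.13. Element 1699 stands next to LHCSR1, and whether the 2 hold related clones is not given. After a running median of neighbouring spots was subtracted, LHCSR1 had -0.83 and CP26 -0.75, and 7 of the 8 loci passed, the exception being plastocyanin at -0.51 (limma adjusted p = 0.0727).

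The same loci were then compared across the light shift. For all 8, both biological samples were below 0 in low light and after 1 h as well. The share of all elements with this pattern was not counted. Some values were close to 0, such as PSAE in low light (limma adjusted p = 0.965) and GSA1 at 1 h (limma adjusted p = 0.910). Sizes were mostly smaller: the low light means ran from -0.48 for CP29 to -0.06 for PSAE, and those at 1 h from -0.38 for plastocyanin to -0.03 for GSA1. CP29 also passed limma's test in low light, at an adjusted p of 0.0342, and the other 7 did not pass at either earlier time. Calls were rare at those times over the whole array, with 8 of 2396 elements in low light and 16 of 2272 at 1 h. The 8 loci were selected at 6 h, so nothing is read from their fewer calls at the earlier times.

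LHCSR1 had sample means of -0.16 and -0.34 in low light, -0.10 and -0.56 at 1 h, and -0.91 and -1.16 at 6 h. The 6 h values lay below all 4 earlier ones. The difference from low light was -0.78 (SE 0.16, limma adjusted p = 0.113) and that from 1 h was -0.70 (SE 0.16, adjusted p = 0.127), neither past the threshold. PSAE had -0.05 and -0.07 in low light, -0.14 and -0.15 at 1 h, and -0.59 and -0.42 at 6 h, again without overlap. Its change from low light was -0.44 (SE 0.10, limma adjusted p = 0.165). The share of all elements with 6 h values below all 4 earlier ones was not counted. Both loci were selected by a low ratio at 6 h, so nothing is read from the lack of overlap.

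CP26 had -0.32 and -0.50 in low light, -0.20 and -0.30 at 1 h, and -0.95 and -0.93 at 6 h. Its fall from 1 h to 6 h passed the test, at -0.69 (SE 0.10, limma adjusted p = 0.0412), and its change from low light, -0.53, did not (adjusted p = 0.0968). The call for the later interval was lost in 13 of 22 alternatives, among them leaving out any biological sample of 1 h or 6 h and centring each slide. CP29 had -0.40 and -0.56 in low light, -0.10 and -0.09 at 1 h and -0.35 and -0.48 at 6 h, so its 6 h samples overlapped those of low light. Neither its change from low light (0.07, limma adjusted p = 0.827) nor that from 1 h (-0.32, adjusted p = 0.359) passed. Whether its course differed from that of CP26 was not tested. GSA1 also had its ratio nearest to 0 at 1 h, with -0.21 and -0.26, then -0.04 and -0.03, then -0.40 and -0.66, and its later change of -0.49 did not pass (limma adjusted p = 0.126).

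**Figure D4:**
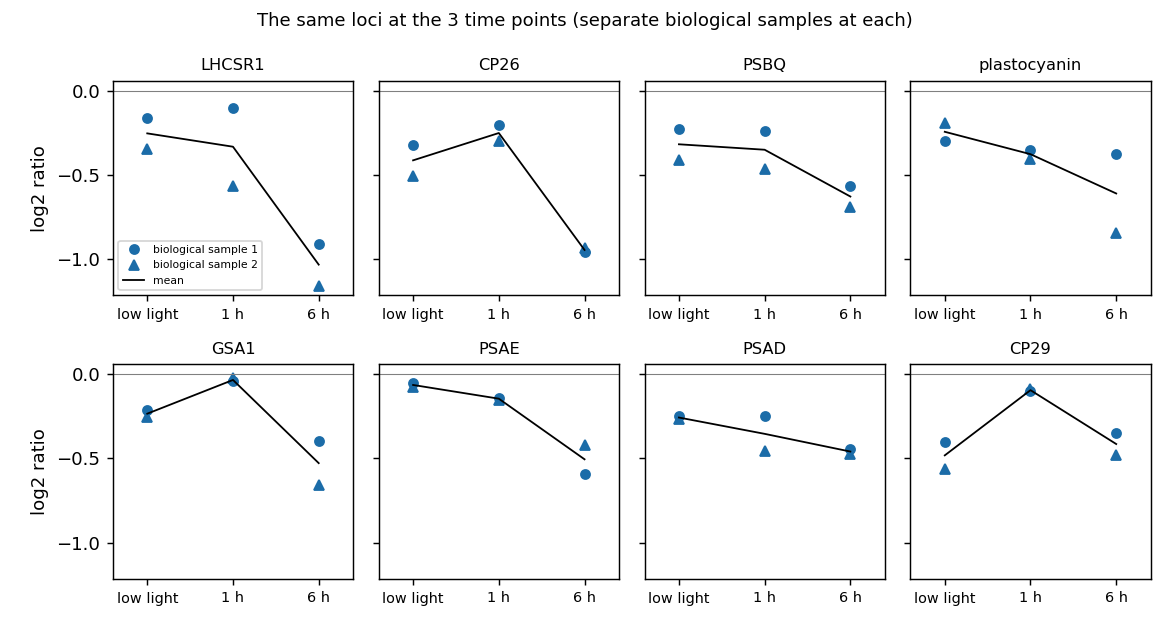
Log2 strain ratio (vertical axis) of the 8 loci before the shift and 1 h and 6 h into high light, with 1 symbol for each biological sample, which differ between times, and a line through the means. LHCSR1 and CP26 lie at -1.03 and -0.94 at 6 h, and CP29 at -0.41, near its low light mean of -0.48.

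In 7 of the 8 loci both 6 h samples lay below both low light samples, and in 6 of 8 below both samples of 1 h, against 19.5% and 15.9% of all elements tested for these changes. The 8 loci were selected by a low ratio at 6 h, which raises these counts, so nothing is read from the comparison. Of the 8, 0 passed limma's adjusted test for a change from low light, with 6 at an unadjusted p under 0.05, and 1 passed for the change from 1 h, also with 6 unadjusted. All of these unadjusted changes were negative. Over all elements 0.0492% passed for the change from low light and 0.208% for the change from 1 h, and an unadjusted p under 0.05 was found for 11.6% and 9.09%, with negative changes for 5.36% and 4.62%. In RNA from whole cultures, fewer cells with a transcript and less of it per cell cannot be told apart.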

How the data were processed

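The deposited values are log2 ratios of the 2 channels after normalization in SNOMAD by the authors, per the labels, which record neither settings nor background correction nor spot filters. For wild type in channel 1 the labels define Cy3/Cy5, and for npq1 lor1 there Cy5/Cy3, so no sign was turned. Medians of the nonzero values ran from -0.08 to 0.07 at 6 h. Centring stays unknown and the direction is only likely.

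Values of 0 were treated as missing, the 4 copies of an element (2880 spots apart, at least 2 with a value) were averaged, and then the 2 slides of a biological sample. The test was limma's (version 3.58.1, lmFit and eBayes, R 4.3.3) on 6 sample values per element, with 1 spread over the 3 time points (prior degrees of freedom 5.66, prior SD 0.108), two-sided, with Benjamini-Hochberg adjustment over all elements tested and a threshold of 0.05. The procedure was tested on simulated data that held independent sample values and no effect of dye orientation. That test says nothing about the orientation differences seen on these slides. The labels call the samples biological replicates.

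Tags of loci were read from GEO's platform annotation. All 100 loci were found in the gene table of assembly Chlamydomonas_reinhardtii_v5.5, which holds tags and no gene names; protein names and lists were added by hand from general knowledge of the alga's gene set. Coordinates are not printed, since no build is named for the array. Named are all tagged elements past the test, tagged loci of known function, and up to 3 untagged elements per direction, largest in size past the test with 1 sign on all 4 slides. Glutamine synthetase, centrin and a 14-3-3 protein lacked values on at least 1 slide and were not tested. The RNA-binding protein CSP41a had a ratio of -0.02 and the pyrophosphatase IPY1 one of 0.08. Malate synthase had -0.16 ± 0.54 (SD, n = 2), a mean of opposite signs, with 0.22 in biological sample 1 and -0.54 in biological sample 2. Members, lists and rules were chosen with earlier results of these data known.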

Additional observations from a re-analysis of the deposited data

Results flagged for a closer look

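The strain ratio at 6 h differed from that at an earlier time for 5 elements in limma's test of the change itself. From 1 h to 6 h the ratio of CP26 changed by -0.69, that of element 1734 by -0.63, that of element 630 by 0.67 and that of element 911 by 1.27. From low light to 6 h that of element 293 changed by 1.13. Elements 1734, 630, 911 and 293 carry no locus tag and were named for these changes. CP26 lost its call in 13 of 22 alternatives and element 1734 in 12 of 22. Out of 21 alternatives, element 630 lost it in 11, element 911 in 7 and element 293 in 14. Turning the sign on mutant-first slides, keeping 0 as a value, using mutant-first slides alone and leaving out the 6 h slide with most zeros each ended all 5. At 6 h, element 1734 had a ratio of -0.76 ± 0.02 (SD, n = 2) and slides between -0.78 and -0.71. The elements nearest to it in spot number had a median ratio of -0.22. Subtracting a running median of neighbouring spots ended its call for the change from 1 h (limma adjusted p = 0.0813). Elements 293 and 630 were above 0 on both wild-type-first slides and below 0 on both mutant-first slides at 6 h, so their 6 h means of 0.24 and 0.20 average opposite signs. Element 911 had a 6 h ratio of -0.23 ± 0.03 (SD, n = 2) after -1.50 at 1 h.

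The 4 slide values at 6 h of the 8 loci and of the 6 untagged elements named by the rule held no slide far from the others by Dixon's criterion.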

How the results depend on the processing

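The 8 loci kept a ratio below 0 at 6 h in the alternatives run for each (with 3 copies PSBQ, plastocyanin and GSA1 had no value), except for the turned sign on mutant-first slides, where LHCSR1 had 0.10, PSBQ 0.018 and PSAD 0.0096, and the change of element 293 became -0.34. Calls were lost in 2 of 23 alternatives for CP26, 3 of 23 for LHCSR1, 4 of 22 for PSBQ, 4 of 23 for PSAE, 5 of 22 for GSA1, 6 of 23 for PSAD, 8 of 22 for plastocyanin and 9 of 23 for CP29. The causes were not tested. With 0 kept as a value, 139 elements had no spread at all.

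At 6 h, 36 elements passed with ratios below 0, 7 above, and 8 of them were tagged. Keeping 0 as a value gave 0, 0 and 0 (542 at limma's unadjusted p under 0.05). The turned sign gave 64, 415 and 14, wild-type-first slides alone 111, 334 and 20, and mutant-first slides alone 20, 1 and 4. Fitting all 12 slides with samples as a random block gave 91, 34 and 14, and with a dye term 72 and 28. Accepting 1 slide per sample gave 20 below 0, and leaving out the 6 h slide with most zeros gave 6, 0 and 1; both were chosen after seeing the data. With the 6 h samples alone setting the spread, 12 were above 0. Leaving out 1 biological sample in turn gave 24 to 47 below 0, 4 to 10 above and 3 to 8 tagged, the lowest tagged count without sample 2 of 6 h.

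Changes to 6 h passed for 1 element from low light and 4 from 1 h. In that order the counts were 0 and 1 with 1 copy, 15 from low light with 3 copies, 0 from low light with medians or without scattered copies, 0 and 0 with zeros kept, 0 and 1 with centred slides, with running medians or with 1 slide per sample, 0 and 0 with the turned sign, on mutant-first slides or without the slide with most zeros, 5 and 8 on wild-type-first slides, 36 and 40 with 12 slides, and 31 and 43 with a dye term. Leaving out 1 biological sample gave 0 to 11 and 0 to 19. Limma's unadjusted p was under 0.05 for 79 to 343 elements in these fits.

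The biological sample number as a replicate block gave 13 and 16 changes and all 8 loci at 6 h. Same-numbered samples deviated together with r of 0.24, -0.03 and -0.16 between times, so the numbers are not taken as pairs.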
